A study of Mus musculus with 9 samples.

Results

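The mRNAs of the nuclear subunits of the mitochondrial respiratory chain and ATP synthase were examined in microglia (resident immune cells of brain tissue) from the visual cortex of adolescent mice. Members were chosen by gene symbol (the Nduf, Sdh, Uqcr, Cox4 to Cox8 and Atp5 series, without pseudogene symbols) and by a measured value, a mean of at least 1 CPM (read counts scaled for library size) over the 9 libraries. Of 45664 symbols in the table, 88 carried such a name. After 4 symbols with -ps and 7 genes below 1 CPM were removed, 77 members remained: 36 of complex I, 4 of complex II, 8 of complex III, 12 of complex IV and 17 of complex V. All 77 also passed the count filter of the tests, and the CPM minimum used both treatment groups together.

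Each library came from the microglia of 1 male C57BL/6 mouse. The 5 control mice received saline (0.9% NaCl) and the 4 ethanol mice received 1.8 g/kg ethanol (20% v/v in saline) at each of a pair of daily injections 2 h apart, 3.6 g/kg per day, under the skin of the back from postnatal day 4 to day 9. The saline mice were killed at postnatal days 36, 30, 35, 29 and 30 (saline 1 to 5) and the ethanol mice at days 35, 35, 30 and 30 (ethanol 1 to 4). Live cells (negative for propidium iodide) that were CD11b positive and low in CD45 were sorted, so the set describes sorted cells and not whole cortex. The mice came from 3 litters; the sources used here do not assign mice to litters. All mice shared the strain, sex, injection schedule and sort, and no uninjected group was analysed here.

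The respiratory chain in the inner mitochondrial membrane moves electrons from NADH and succinate to oxygen and pumps protons as it does so, and ATP synthase (complex V) uses the proton gradient to make ATP. Complexes I, III, IV and V combine subunits encoded in the nucleus with a few encoded by mitochondrial DNA, whereas complex II, which is also an enzyme of the tricarboxylic acid cycle, is wholly nuclear. Nuclear respiratory factor 1 (NRF1) and the GABP factors are known activators of many of these nuclear genes. Microglia use oxidative phosphorylation at rest and are known to lean more on glycolysis when activated by inflammatory stimuli.

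Promoter sequences were read as a feature that the choice of members did not use. Whether they bear on the deviations from library to library, described further on, was not tested. RefSeq windows of the GRCm38.p6 assembly, from 250 bases before to 50 after the start, were matched for 62 of the 77 members (67 windows). The NRF1 motif CGCANGCG, searched on both strands, stood in 28 of 67 member windows (41.8%), against 8.21% of 32851 windows of all genes and 18.9% of 8542 windows of genes with a mean of at least 10 CPM. The YY1 motif AAGATGGC stood in 13.4% of member windows, against 2.75% and 5.39% of the same sets. The GABP/ETS motif CCGGAAG stood in 23.9% of member windows, against 8.86% of all windows and 19.9% of those of expressed genes. Sp1 (GGGCGG) went the other way against expressed genes, with 37.3% of member windows and 64.4% of theirs. CCAAT differed little (40.3%, 37.4% and 36.9%), and the estrogen-related receptor motif TCAAGGTCA stood in 2 member windows (2.99%, against 0.423% and 0.304%). Matches were counted motif by motif and may overlap each other. The median GC content was 57.7% in member windows and 52.7% in all windows, and a match is a description of these letters, not a measured binding site.

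The sequences below are the 150 bases before the first annotated base of the gene. Only members with no more than 1 window were eligible, which left out Atp5c1, higher in CPM than Atp5h and with NRF1 matches in its windows. The sequences belong to the eligible member with the highest mean CPM in each complex among those with an NRF1 match there. No complex III member qualified, although the 300-base windows of Uqcrc1, Uqcr10 and Uqcr11 held NRF1 matches outside that stretch. The last is that of Atp5b, the member with the highest CPM of all, whose 300-base window held no NRF1, GABP/ETS or YY1 match. Capitals mark NRF1 matches, and each sequence reads 5′ to 3′ on the strand of its gene.
Ndufa11 (complex I, chr17:56717612-56717761, plus strand): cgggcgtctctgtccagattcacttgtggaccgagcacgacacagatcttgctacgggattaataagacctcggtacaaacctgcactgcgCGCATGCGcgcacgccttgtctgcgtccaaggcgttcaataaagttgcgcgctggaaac
Sdha (complex II, chr13:74350281-74350430, minus strand): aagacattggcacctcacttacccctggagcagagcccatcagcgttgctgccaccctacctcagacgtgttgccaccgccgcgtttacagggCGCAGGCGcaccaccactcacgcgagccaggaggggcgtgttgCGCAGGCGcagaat
Cox6a1 (complex IV, chr5:115348982-115349131, minus strand): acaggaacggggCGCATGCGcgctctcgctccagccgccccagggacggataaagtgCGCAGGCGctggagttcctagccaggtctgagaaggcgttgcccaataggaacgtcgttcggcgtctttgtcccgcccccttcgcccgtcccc
Atp5h (complex V, chr11:115419963-115420112, minus strand): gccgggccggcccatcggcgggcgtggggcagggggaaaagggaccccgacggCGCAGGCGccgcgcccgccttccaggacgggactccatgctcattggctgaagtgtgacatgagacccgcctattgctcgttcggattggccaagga
Atp5b (complex V, chr10:128083123-128083272, plus strand): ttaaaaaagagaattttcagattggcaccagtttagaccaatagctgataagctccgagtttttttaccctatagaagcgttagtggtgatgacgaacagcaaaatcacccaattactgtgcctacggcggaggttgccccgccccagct
The first 4 sequences hold 1, 2, 2 and 1 NRF1 matches, so Sdha and Cox6a1 carry a pair of them within 150 bases. Atp5b was picked for a window without a match, so its contrast with the others was set by the choice. Whether matches go with level was not tested.

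The libraries held 12816198 to 28859244 counts, and the 77 members together took 0.385% to 0.456% of them. Summed CPM of 8 microglial markers lay between 52609 and 62609, against 3.59 to 305 for 10 neuronal and 3.75 to 186 for 9 astrocyte markers. Both low ends were those of saline 1. The next lowest values were 80.6 for neuronal markers (ethanol 2) and 62.1 for astrocyte markers (saline 4). Cd3e, Cd3g and Nkg7 of the lymphocyte list, S100a8 and S100a9 of the neutrophil list, Cldn11 of oligodendrocytes and Rgs5 of pericytes were at 0 in every library. The other genes of the last 2 lists were detected. Summed CPM was 198 to 262 for oligodendrocyte markers, 49.9 to 72.9 for endothelial cells and pericytes and 39.1 to 91.2 for border macrophages. Ethanol 2 stood apart from the rest: 1435 of 8477 genes at 10 CPM or more were over 1.5-fold off the mean of the other 8 libraries there, against 63 to 190 in the other libraries. Medians of the members and of each complex are therefore given with and without it. In bulk RNA, fewer cells of a type and less RNA per cell cannot be told apart.

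The members covered a wide range of levels. CPM counts reads and grows with transcript length, so levels of different genes are compared here as mean CPM per kilobase (kb) of the union of annotated exons, with the same per kb of the principal transcript beside it. The median member stood at 21.8 CPM per kb of exon union and 42.9 CPM per kb of principal transcript. Before this scaling, 7 members had a mean of 100 CPM or more, 62 lay between 10 and 100 CPM and 8 were below 10 CPM, and the 2 highest, Atp5b and Atp5a1, held 19.2% of the summed member CPM. Within a gene the libraries were close: the coefficient of variation over the 9 libraries had a median of 9.14%, and in 63 of 77 members the highest library was within 1.5-fold of the lowest.

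**Figure D1:**
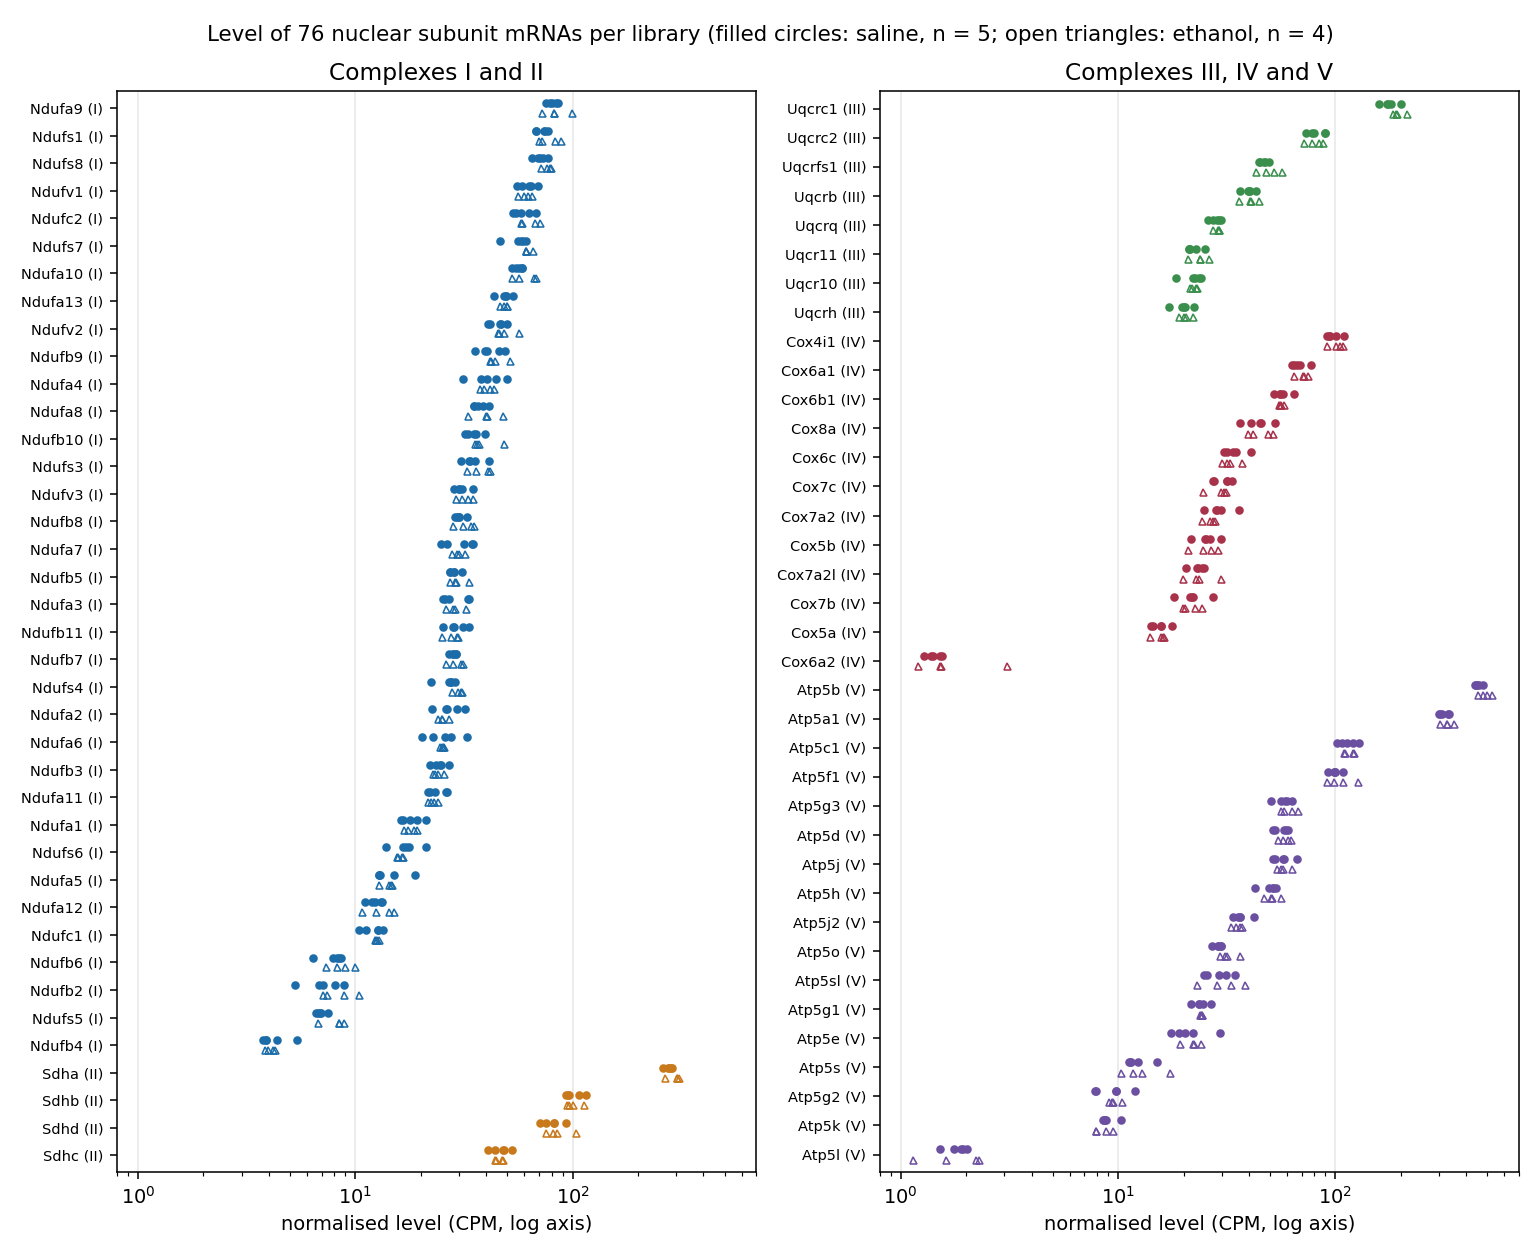
Level of 76 members in each library, on a log axis in CPM, grouped by complex and ordered by mean. Filled circles are the 5 saline libraries and open triangles the 4 ethanol libraries, which overlap in each of them; Cox6a2 has 1 open triangle at 3.07 CPM far from the others.

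The catalytic subunits of ATP synthase led the set. Atp5b (chr10:128083273-128090391), the beta subunit that carries the catalytic sites, had the highest level per kb under each of the 3 lengths tried, with 111 CPM per kb of exon union and 245 per kb of principal transcript. Atp5a1, the alpha subunit of the same ring, followed at 102 and 130, and Atp5c1, the gamma subunit of the central stalk, at 60.3 and 98.6. The 2 lowest of complex V were Atp5l, subunit g of the membrane part, at 0.28 and 3.35, and Atp5g1, which encodes subunit c of the proton-carrying ring, at 4.90 and 5.10. Atp5g1 has the longest principal transcript of the members, 4715 bases, which lowers its value per kb.

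Among the other complexes the order was as follows. Cox6a1 (98.5 CPM per kb of exon union), Cox6b1 (80.1) and Cox8a (72.3) led complex IV, and Cox4i1, the largest nuclear subunit of that complex, had 64.2 per kb of exon union but 130 per kb of principal transcript, the second highest of all members. Ndufc2 (81.3), Ndufs8 (56.9) and Ndufa2 (46.1) led complex I. Sdha (chr13:74322254-74350280), the flavoprotein that oxidises succinate, had 69.0 CPM per kb of exon union, close to the 67.5 of the membrane anchor Sdhd, and the other anchor, Sdhc, had 14.3. Uqcrb (45.8), the core protein Uqcrc1 (44.7) and Uqcr10 (38.1) led complex III. Per kb of principal transcript Uqcrc1 had 112 and Uqcrb 74.9, so the length used turned that order.

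The lowest members per kb were few. Ndufb2 (1.38) and Ndufb4 (2.17) were lowest in complex I, Sdhc (14.3) and Sdhb (45.1) in complex II, Uqcrq (15.5) and Uqcrh (16.3) in complex III, and Cox6a2 (2.36) and Cox5a (7.40) in complex IV, all in CPM per kb of exon union. Ndufb2 has 5628 bases of exon union, which lowers its value. Just inside the CPM minimum stood Cox6a2 (1.60 CPM), Atp5l (1.82 CPM) and Ndufb4 (4.16 CPM), and just outside it Cox6b2 (0.32 CPM), Cox7a1 (0.11 CPM) and Cox4i2 (0.04 CPM).

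The redox core of complex I did not share a single level. Ndufs8 and Ndufs7, iron-sulfur subunits near the ubiquinone site, had 56.9 and 34.2 CPM per kb of exon union. Ndufv1, which binds FMN and takes electrons from NADH, had 23.3, and its partner Ndufv2 had 21.8. Ndufs3 had 16.6 and Ndufs1, the largest iron-sulfur subunit, 9.26. Per kb of principal transcript these 6 genes ran from 73.1 (Ndufs8) to 27.6 (Ndufv2), with 28.1 for Ndufs1. Elsewhere the iron-sulfur subunit Sdhb had 45.1 per kb of exon union and the Rieske protein Uqcrfs1 35.3.

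For subunits with more than 1 gene, 1 form made up nearly all of the signal in most sets, on the scale of CPM per kb of exon union. Cox4i1 had 64.2, and Cox4i2, the form known from lung, 0.04. Cox6a1 had 98.5 and Cox6a2, the heart and muscle form, 2.36. Cox6b1 had 80.1 and Cox6b2, a testis form, 0.28. Cox8a had 72.3, and Cox8b and Cox8c were at 0 in every library, where 3 counts in the smallest library would give 0.238 CPM. Ndufa4, named for complex I but known as a subunit of complex IV, had 29.3 and its paralogue Ndufa4l2 0.01. Cox7a2 had 29.9, its relative Cox7a2l 15.9, and the muscle form Cox7a1 0.21. The subunit c genes, which encode the same mature protein, were shared out among Atp5g3 (27.1), Atp5g2 (5.69) and Atp5g1 (4.90), so that no single gene held all of that signal. Before scaling for length, Atp5g1 (24.0 CPM with saline) stood above Atp5g2 (9.47 CPM with saline), so their order depended on the length.

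Part of the low end carries sequence shared with other genes, so those counts are uncertain. For each member the share of its 50-base words that also occur in a transcript of another gene was computed, with a median of 3.25% and with 31 members at 0. Atp5g2 (87.4%), Atp5l (84.8%), Cox7c (53.0%), Atp5o (50.3%), Atp5h (47.9%) and Uqcrb (43.4%) had the highest shares. The 15 members above 25% had a median of 29.4 CPM per kb of principal transcript, against 45.9 for the 31 members with no shared word. Atp5g2 and Atp5l, both above 80%, had 13 and 3.35. Ndufb2 and Cox6a2 were low with shares of only 5.39% and 3.33%, so low level per kb and shared sequence did not always go together. The principal transcript of Ndufb2 has 4371 bases, against a member median of 865, and its value per kb is lowered by that length. Whether reads of these genes were lost as multiply mapped was not tested. Among the members, Atp5o also had 35.6% and Ndufb6 39.0% of their exon bases under an antisense gene, and the sources used here do not say whether counting used strand.

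**Figure D2:**
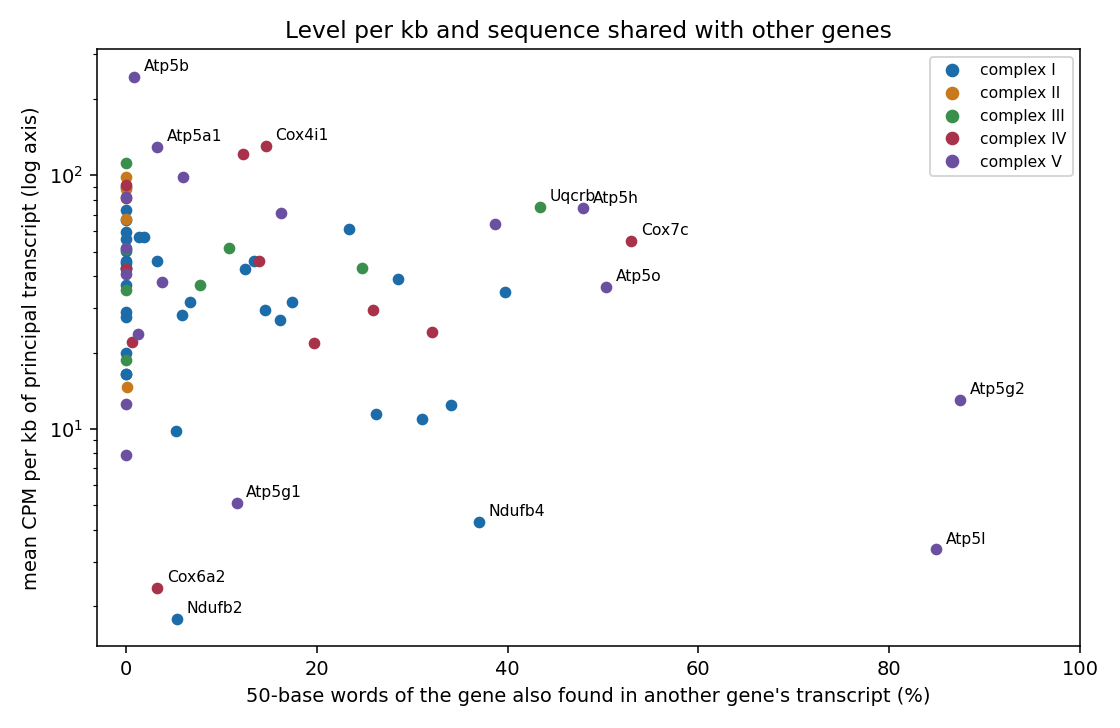
Mean CPM per kb of principal transcript (log axis) against the share of a gene's 50-base words found in other genes' transcripts, 1 point for each of 76 members, coloured by complex. Atp5g2 and Atp5l stand alone above 80%, while Ndufb2, whose principal transcript has 4371 bases, and Cox6a2 are lower per kb with few shared words.

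Ethanol exposure in the first days of life left no member past the threshold in adolescence. In edgeR's quasi-likelihood test with Benjamini-Hochberg adjustment over 13067 genes, 0 of 77 members and 0% of all genes had an adjusted p under 0.05, and the smallest adjusted p of a member was 0.963. At an unadjusted p under 0.05 the counts were 0 members and 386 genes (2.95%). DESeq2 and limma-voom also called 0 genes, with 435 and 504 at an unadjusted p under 0.05. No member separated the groups. Over all genes, 85 (0.65%) had all ethanol libraries above all saline libraries and 83 (0.635%) the reverse. With shares this low, 0 of 77 does not set the members apart.

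The estimates were small in size as well as short of the threshold. Log2 fold changes (ethanol minus saline) of the members ran from -0.15 to 0.37 with a median of 0.05, beside a median of -0.00068 over all genes. The 95% interval lay inside 1.5-fold in both directions for 74 of 77 members (96.1%). For these 74 a change of 1.5-fold lay outside the interval. The exceptions were Ndufb2, Cox6a2 and Atp5l, all under 10 CPM. The share was 59.4% over all genes tested, a set not matched to the members in level. For genes of cytoplasmic ribosomal proteins the share was 94.9%, and for assembly factors of the complexes 88.4%. A positive estimate was found for 50 of 77 members (64.9%), against 49.8% of all genes. That count moved with single libraries, to 43 without ethanol 2 or without saline 5 and to 65 without saline 4. The member median was then 0.01, 0.01 and 0.08. Medians of the single complexes moved as well, and the lowest and highest value on leaving out 1 library stand with each.

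**Figure D3:**
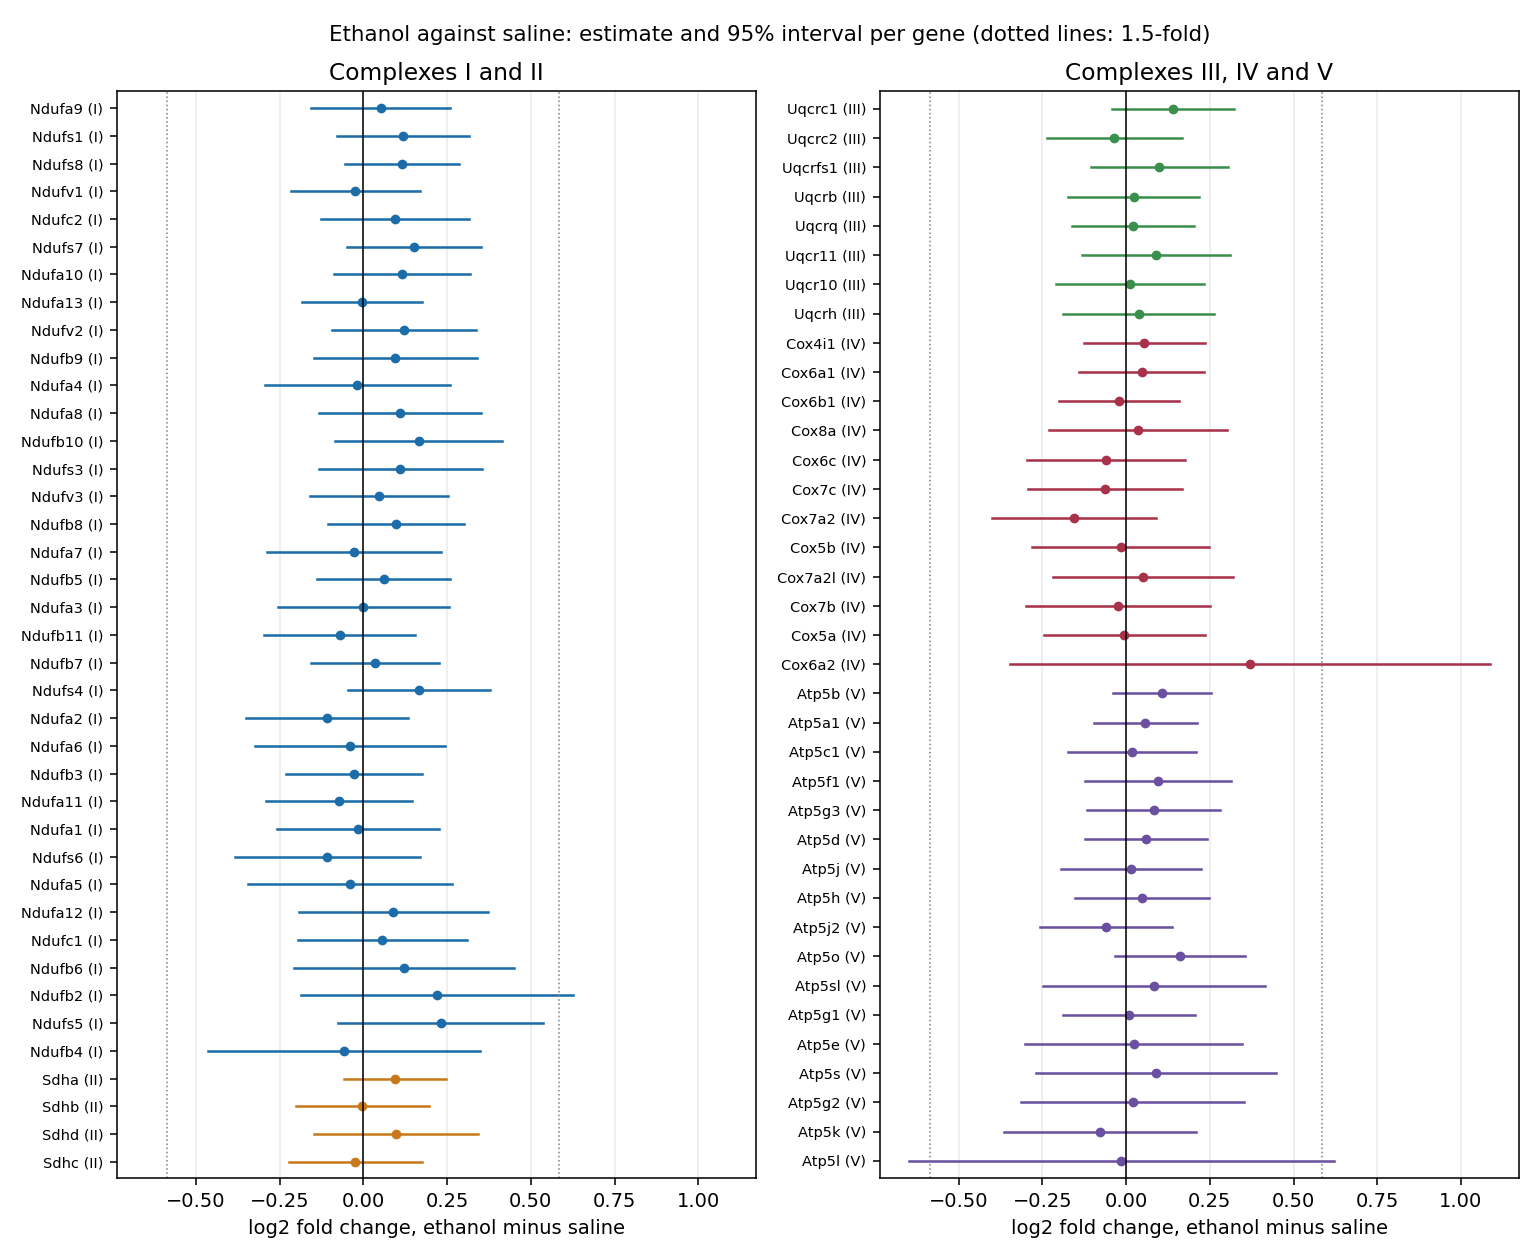
Log2 fold change (ethanol minus saline) of 76 members as a point with its 95% interval, coloured by complex; dotted lines mark 1.5-fold. Every interval crosses 0, and those of Ndufb2, Cox6a2 and Atp5l pass a dotted line.

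Complex I, which takes electrons from NADH, had 22 of 36 positive estimates and a median log2 fold change of 0.06, or 0.01 without ethanol 2 and 0.09 without saline 4. The 7 core subunits of its matrix arm had a median of 0.11 with 6 positive, and the 29 accessory subunits 0.05 with 16 positive; without ethanol 2 these medians were 0.05 and 0.01. Ndufs4, an accessory subunit that stabilises the NADH-binding module, was at 27.5, 27.6, 22.2, 28.7 and 26.9 CPM in saline 1 to 5 and 29.7, 31.0, 30.5 and 28.0 CPM in ethanol 1 to 4. The ethanol libraries were high except ethanol 4, which lay below saline 4, and the log2 fold change was 0.17 ± 0.10 (SE), edgeR adjusted p = 0.963. Ndufa2, a small accessory subunit of the same arm, was at 26.4, 26.3, 29.3, 32.0 and 22.4 CPM in saline 1 to 5 and 24.0, 27.0, 25.1 and 24.9 CPM in ethanol 1 to 4. All ethanol values lay inside the saline range, with a log2 fold change of -0.11 ± 0.11 (SE), edgeR adjusted p = 0.963.

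Ndufs7 and Ndufs8 also had higher means in ethanol mice, within overlapping groups. Ndufs7 averaged 55.9 ± 5.69 CPM with saline (SD, n = 5) and 62.1 ± 2.26 CPM with ethanol (SD, n = 4). Ndufs8 averaged 70.9 ± 4.57 and 76.7 ± 3.53 CPM. Their log2 fold changes were 0.15 ± 0.09 and 0.11 ± 0.08 (SE), neither past the threshold.

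Complex II, succinate dehydrogenase, had 2 positive and 2 negative estimates and a median of 0.05. Its sign turned without ethanol 2, to -0.01, and the highest value was 0.07 without saline 4. Sdha was at 279, 261, 286, 274 and 283 CPM in saline 1 to 5 and 303, 309, 302 and 267 CPM in ethanol 1 to 4. Ethanol 1 to 3 lay above every saline library, and ethanol 4 lay near the bottom of the saline range, above saline 2 alone. The log2 fold change was 0.09 ± 0.07 (SE), edgeR adjusted p = 0.963. Sdhc, which anchors the enzyme in the membrane and helps bind heme, was at 52.5, 43.8, 47.8, 48.4 and 40.8 CPM in saline 1 to 5 and 47.8, 44.5, 44.1 and 47.2 CPM in ethanol 1 to 4. Here the ethanol values lay inside the saline range, with a log2 fold change of -0.02 ± 0.09 (SE), edgeR adjusted p = 0.986.

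Complex III, which passes electrons from ubiquinol to cytochrome c, had 7 of 8 positive estimates and a median of 0.03. Without ethanol 2 the median was 0.02, and the range ran from 0.00071 without saline 5, with 4 of 8 positive, to 0.08 without ethanol 1. Uqcrc1 (chr9:108936633-108949623), a core protein without a redox centre, was at 199.9, 179, 159, 175 and 172 CPM in saline 1 to 5 and 192, 215, 189.9 and 183 CPM in ethanol 1 to 4. Saline 1 lay above all ethanol libraries but ethanol 2, and the other saline libraries lay below all ethanol libraries. The log2 fold change was 0.14 ± 0.08 (SE), edgeR adjusted p = 0.963. Uqcrc2, its partner core protein, had the only negative estimate of the complex and was at 89.5, 80.1, 78.4, 89.8 and 73.3 CPM in saline 1 to 5 and 87.3, 84.1, 77.8 and 71.8 CPM in ethanol 1 to 4. The groups covered a like range, with a log2 fold change of -0.04 ± 0.09 (SE), edgeR adjusted p = 0.977.

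Complex IV, cytochrome c oxidase, had 5 of 12 positive estimates and a median of -0.01; with Ndufa4 counted here the median was -0.02 and 5 of 13 were positive. That negative median was not stable: it was 0.05 with 10 of 12 positive without saline 4, 0.0020 without ethanol 1 and 0.01 without ethanol 3, against -0.02 without ethanol 2 and -0.03 without saline 5, the lowest. Cox4i1 (chr8:120668222-120674207) was at 94.7, 100.2, 91.8, 109 and 93.2 CPM in saline 1 to 5 and 91.6, 105, 109 and 101 CPM in ethanol 1 to 4. The groups overlapped over their full range, with a log2 fold change of 0.05 ± 0.08 (SE), edgeR adjusted p = 0.963. Cox7a2, a small membrane subunit, was at 24.9, 29.9, 28.6, 36.04 and 28.3 CPM in saline 1 to 5 and 27.3, 24.4, 26.6 and 27.9 CPM in ethanol 1 to 4. Saline 4 was the highest library, ethanol 2 the lowest, and the groups overlapped, with a log2 fold change of -0.15 ± 0.11 (SE), edgeR adjusted p = 0.963, the most negative of the 77 with all libraries. Without saline 4 it was -0.07, and another member was lower at -0.09. Cox6a2 had the most positive estimate, a log2 fold change of 0.37 ± 0.33 (SE), edgeR adjusted p = 0.963, and was at 1.51, 1.41, 1.28, 1.55 and 1.37 CPM in saline 1 to 5 and 1.51, 3.07, 1.20 and 1.53 CPM in ethanol 1 to 4. Ethanol 2 alone was high, and without it the estimate was -0.01.

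Complex V, ATP synthase, had 14 of 17 positive estimates and a median of 0.05. Without ethanol 2 the median was 0.0017 with 9 positive and without saline 5 it was 0.02 with 10 positive, while without ethanol 4 it was 0.09. The symbols Atp5s and Atp5sl match the naming rule but are not known as structural subunits; without them the median was 0.02 with 12 of 15 positive, and 0.0017 with 8 positive when ethanol 2 was left out too. Atp5b was at 449.7, 457, 437, 479 and 444 CPM in saline 1 to 5 and 498, 524, 479.8 and 452 CPM in ethanol 1 to 4. Ethanol 1 to 3 lay above all saline libraries and ethanol 4 inside their range, and the log2 fold change was 0.11 ± 0.07 (SE), edgeR adjusted p = 0.963. Atp5o, which ties the catalytic head to the peripheral stalk, was at 29.6, 28.9, 28.8, 29.7 and 27.2 CPM in saline 1 to 5 and 29.6, 36.5, 31.8 and 31.0 CPM in ethanol 1 to 4. The highest saline libraries only just reached the lowest ethanol library, and the log2 fold change was 0.16 ± 0.09 (SE), edgeR adjusted p = 0.963. Atp5j2, subunit f of the membrane part, was at 36.4, 35.7, 33.8, 42.3 and 36.4 CPM in saline 1 to 5 and 33.1, 36.5, 34.7 and 37.3 CPM in ethanol 1 to 4. The ethanol libraries lay within the saline range apart from ethanol 1, the lowest of all, with a log2 fold change of -0.06 ± 0.09 (SE), edgeR adjusted p = 0.963. Atp5a1 averaged 315 ± 15.2 CPM with saline (SD, n = 5) and 327 ± 20.3 CPM with ethanol (SD, n = 4).

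None of these estimates was separable from the spread between libraries, and the sign of Sdhc, Uqcrc2, Cox6a2 and Atp5j2 turned under at least 1 alternative setting. The part of litter was not tested.

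Age gave the second comparison, since 4 mice were older (days 35 and 36, 2 saline and 2 ethanol) and 5 younger (days 29 and 30, 3 saline and 2 ethanol). With ethanol as a covariate, edgeR's test called 0 of 77 members and 0% of all genes for older against younger mice, and the smallest adjusted p of a member was 0.973. DESeq2 and limma-voom called 0 genes too. At an unadjusted p under 0.05 the counts were 0 members and 372 genes (2.85%). Positive estimates (higher in older mice) were found for 47 of 77 members (61.0%), against 45.2% of all genes, and the median log2 fold change was 0.02, against -0.02 for all genes. In saline mice alone 31 of 77 were positive with a median of -0.03, and in ethanol mice alone 56 of 77 with a median of 0.07. Without ethanol 2 the median was -0.0044 and 36 of 77 were positive. With the suffix of the library name as a covariate 10 of 77 were positive and the median was -0.15. Saline 4 alone among the younger libraries shared its suffix with older ones. Age and suffix can therefore hardly be told apart in any of the age estimates.

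Complex IV had 3 of 12 positive estimates for age and a median of -0.08, which leaving out 1 library moved between -0.03 (saline 1) and -0.11 (saline 5), with -0.04 without saline 4 or without ethanol 2. Medians of the other complexes were 0.04 (I), 0.06 (II), 0.04 (III) and 0.03 (V). Without ethanol 2 they were 0.0078, 0.03, -0.00051 and -0.0067. Among single genes, Cox7a2 averaged 26.3 ± 1.98 CPM in older mice (SD, n = 4) and 29.7 ± 3.71 CPM in younger mice (SD, n = 5), with a log2 fold change of -0.16 ± 0.11 (SE). Saline 4, a younger mouse, had the highest Cox7a2 value of all. Ndufa10, an accessory subunit of complex I, averaged 62.0 ± 6.26 CPM in older and 55.5 ± 2.61 CPM in younger mice, with a log2 fold change of 0.14 ± 0.09 (SE). Its values were 58.7, 58.7, 54.9, 52.8 and 56.5 CPM in saline 1 to 5 and 66.4, 68.1, 56.8 and 52.9 CPM in ethanol 1 to 4, so both older ethanol mice were high and the older saline mice were not.

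The interaction of ethanol and age asked whether the ethanol estimate differed between older and younger mice. It reached an adjusted p under 0.05 in 0 of 77 members and 0% of all genes by edgeR, and an unadjusted p under 0.05 in 0 members and 423 genes (3.24%); DESeq2 called 1 gene, C130089K02Rik, which is no member and is named after its value was seen, and limma-voom 0. The smallest adjusted p of a member was 0.972. Positive interaction estimates, meaning a higher ethanol estimate in older mice, were found for 56 of 77 members, with a median of 0.11 against -0.01 for all genes. Of the pair of older ethanol mice 1 was ethanol 2, and without that library the median was 0.04 with 48 of 77 positive. Within cohorts the member median for ethanol was 0.10 in older mice (58 of 77 positive) and -0.01 in younger mice (32 of 77 positive).

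Single libraries differed by more than the groups did. The deviation of a gene in a library was taken as its log2(CPM + 0.5) minus the mean of the other 8 libraries. The median member was at -0.02, -0.02, -0.03, 0.11 and -0.14 in saline 1 to 5 and at 0.02, 0.10, -0.0017 and -0.01 in ethanol 1 to 4. In saline 4, 65 of 77 members were above 0, and in saline 5, 7 of 77. Ethanol 2 had 56 of 77 above 0. With library totals in place of TMM saline 5 was again lowest (-0.13), but ethanol 2 (0.13) then stood above saline 4 (0.12). No member was off by more than 2-fold in any library. Over all 8477 genes at 10 CPM or more, the medians lay between -0.01 and 0.04.

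The complexes shared a direction in saline 4 and in saline 5, at different sizes, but not in ethanol 2. In saline 4 the median deviation was 0.11 for complex I, 0.14 for II, 0.10 for III, 0.21 for IV and 0.09 for V, and in saline 5 it was -0.16, -0.04, -0.14, -0.13 and -0.11. Ethanol 2 was high for complexes I, II, III and V (0.10, 0.16, 0.11 and 0.16) but not for IV (-0.06). Genes of cytoplasmic ribosomal proteins, which like the respiratory subunits have short mRNAs, stood at 0.21 in saline 4, -0.16 in saline 5 and -0.00027 in ethanol 2. The high value of saline 4 and the low value of saline 5 were therefore shared with ribosomal protein genes, and that of ethanol 2 was not.

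**Figure D4:**
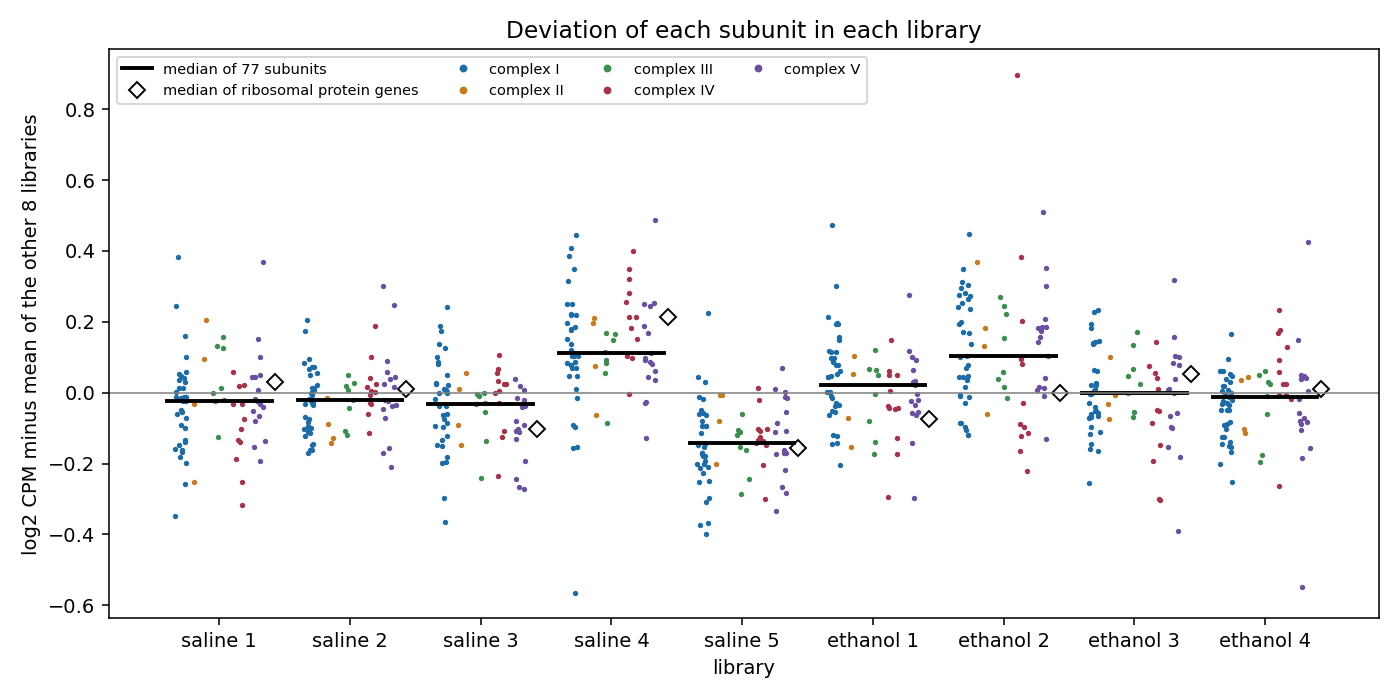
Deviation of each member in each library (log2 CPM minus the mean of the other 8 libraries), 1 dot per gene coloured by complex; black bars are the medians of the 77 members and open diamonds the medians of 73 cytoplasmic ribosomal protein genes. Saline 4 is high and saline 5 low in both sets, whereas ethanol 2 is high in the members and not in the ribosomal protein genes.

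Transcript length and GC content were set beside these deviations. The principal transcript of the members had a median length of 865 bases, against 3146 for all genes at 10 CPM or more, and the ribosomal protein genes had 887; median GC content was 51.3% for members and 49.98% for all genes. After a smooth trend on length and GC was removed from each library, the median member stood at -0.05 in saline 5, 0.09 in saline 4 and 0.03 in ethanol 2. All genes at 10 CPM or more then had medians of -0.0081, 0.02 and 0.07 in these libraries, so in ethanol 2 the members no longer stood above the other genes. The part of RNA handling in this was not tested. The RNA integrity number was 9.9 for saline 4, 9.8 for saline 5 and 9.2 for ethanol 2, within the 9.0 to 9.9 of all libraries.

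Pairs of members had a higher median correlation than pairs of all genes. The median Pearson correlation between pairs of members over the 9 libraries was 0.32, against -0.0049 for pairs of all 8477 genes at 10 CPM or more and 0.48 for pairs of ribosomal protein genes. It was 0.30 within complex I, 0.22 within II, 0.42 within III, 0.43 within IV and 0.35 within V. Without saline 1 and ethanol 2 the median over members was 0.38, while that within complex II, of 4 genes, was 0.05; the others were 0.36 (I), 0.38 (III), 0.54 (IV) and 0.36 (V). These values describe 9 libraries that share depth and preparation, and carry no test.

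The 4202 ± 201 summed CPM of the members in ethanol mice (SD, n = 4) and 4034 ± 204 in saline mice (SD, n = 5) overlapped, with the highest sum in ethanol 2 (4479) and the lowest in saline 5 (3818). The mitochondrial partners of these subunits, encoded in mitochondrial DNA, followed another order. Of 13 such genes listed, 8 were tested, and none passed the adjusted threshold. The tested ones were mt-Nd1 to mt-Nd6, mt-Cytb and mt-Co1, with no gene of complex V among them. Sums of these genes are therefore not the full mitochondrial part. All 8 had positive estimates for ethanol, with a median of 0.22. Of them 3 had an unadjusted p under 0.05, against 2.95% of all genes. Without ethanol 4, 6 of 8 were positive with a median of 0.15 and 1 at that p. Mt-Co1, the catalytic subunit of complex IV and the smallest p of these, averaged 558 ± 84.4 CPM with saline (SD, n = 5) and 770 ± 149 CPM with ethanol (SD, n = 4), a log2 fold change of 0.46 ± 0.14 (SE) with an edgeR adjusted p of 0.963. Mt-Cytb, the highest of them, averaged 683 ± 76.5 and 813 ± 88.3 CPM. For age, which nearly coincided with the library-name suffix, all 8 had negative estimates, with a median of -0.25. Of them 5 had an unadjusted p under 0.05, against 2.85% of all genes. The 7 mitochondrial genes at 10 CPM or more had a median pairwise correlation of 0.62, so these counts are not of separate observations. Summed CPM of the mitochondrial genes was 2051, 2188, 2067, 2388 and 2614 in saline 1 to 5 and 2304, 2847, 2812 and 2950 in ethanol 1 to 4. So saline 5, lowest for the nuclear subunits, was the highest saline library for the mitochondrial ones.

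**Figure D5:**
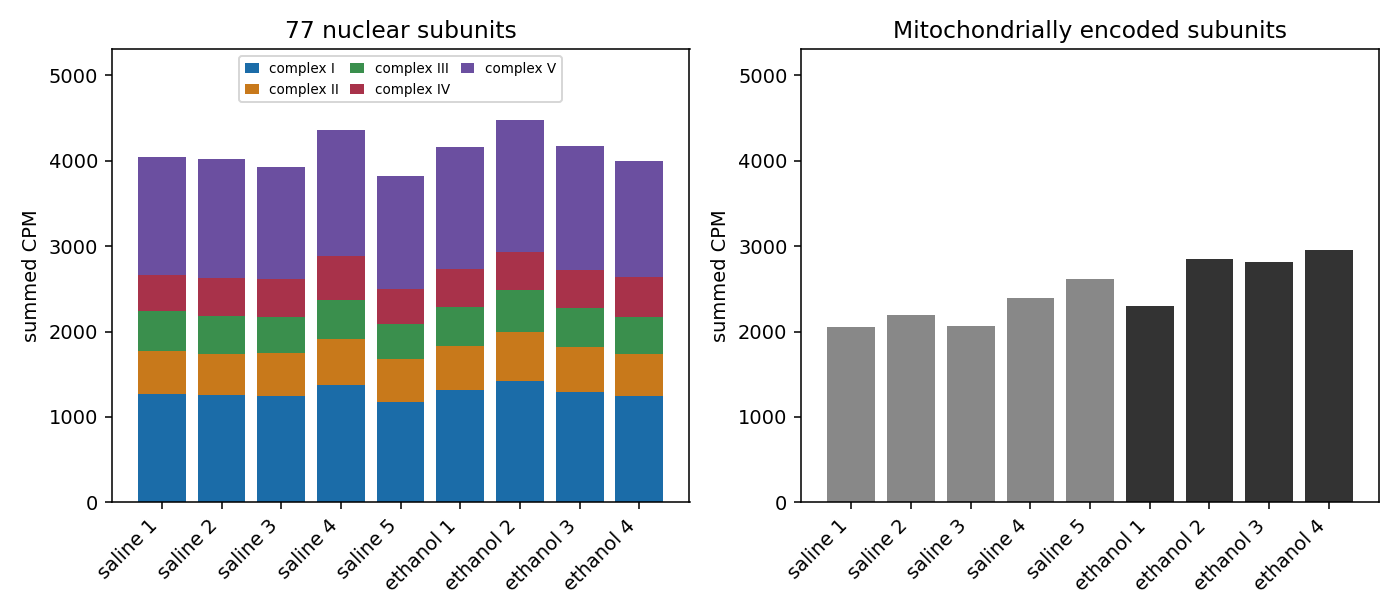
Summed CPM per library of the 77 nuclear members, stacked by complex, and of the mitochondrially encoded subunits (grey saline, black ethanol). Only 8 of 13 listed mitochondrial genes were tested, so their sum is not a full total to set beside the nuclear one. Nuclear sums lie between 3818 and 4479, with saline 5 lowest and ethanol 2 highest; mitochondrial sums lie between 2051 and 2950 and the groups overlap.

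Other genes of the pathway were read from lists by function. Subunits whose names fall outside the rule gave a like picture: Cyc1, the cytochrome c1 of complex III, averaged 73.3 ± 3.93 CPM with saline (SD, n = 5) and 82.5 ± 7.04 CPM with ethanol (SD, n = 4), with a log2 fold change of 0.17 ± 0.08 (SE). Ndufab1, the acyl carrier protein of complex I, had 0.05 ± 0.10 (SE). Usmg5 and 2010107E04Rik, small membrane subunits of complex V, and its inhibitor Atpif1 had log2 fold changes of -0.09, -0.0011 and -0.06. None of these passed the threshold.

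Assembly factors, the mobile carriers and the tricarboxylic acid cycle were likewise without a called gene. Of 43 assembly factors tested, 23 had positive ethanol estimates, with a median of 0.03 and 0 at an unadjusted p under 0.05; without ethanol 2 the median was -0.01. Cytochrome c and other electron carriers and donors of the ubiquinone pool had 7 of 7 positive estimates and a median of 0.06, or 5 of 7 and 0.03 without ethanol 2. The tricarboxylic acid cycle list had 16 of 18 positive, a median of 0.07 and 1 at an unadjusted p under 0.05, Pdhx, a component of the pyruvate dehydrogenase complex (32.9 ± 2.53 CPM with saline, SD, n = 5, and 38.1 ± 2.53 CPM with ethanol, SD, n = 4). Without ethanol 2 the list had 11 of 18 positive and a median of 0.02. Its highest member Idh2 had 0.05 ± 0.07 (SE).

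Regulators of mitochondrial biogenesis had 10 of 27 positive estimates, a median of -0.03 and 3 at an unadjusted p under 0.05. The smallest p was that of Sirt1, a deacetylase that acts on the coactivator PGC-1alpha, at 22.1 ± 2.04 CPM with saline (SD, n = 5) and 28.3 ± 2.65 CPM with ethanol (SD, n = 4). Its log2 fold change was 0.36 ± 0.10 (SE), with an edgeR adjusted p of 0.963. Ppargc1a, the gene of PGC-1alpha, was not among the 27 tested. The highest, Polg, the mitochondrial DNA polymerase, had -0.20 ± 0.12 (SE). Carriers, uncoupling and outer membrane genes had 8 of 16 positive estimates, a median of 0.01 and 2 at an unadjusted p under 0.05, with the smallest p for Opa1, a dynamin-like protein of the inner membrane (-0.22 ± 0.09, SE), and the highest level for Ucp2 (-0.20 ± 0.23, SE). For the 78 ribosomal protein genes tested the median was 0.01 with 43 positive. None of the genes on these lists had an edgeR adjusted p under 0.05 for ethanol or for age.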

How the data were processed

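Values deposited by the authors are raw counts, 1 whole number per gene symbol and library, not normalized, for 9 libraries. Per the submitters' processing notes the tools were HTSeq 0.6.1, STAR 2.4.2a and Trimmomatic 0.32, with build GRCm38.p4; the sources used here do not state strand settings. Members, gene lists and tests were chosen with earlier results of these data known.

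A filter on low counts (filterByExpr, at least 10 counts, total of at least 15) left 13067 genes, and scaling was by TMM (trimmed mean of M values). CPM are TMM-scaled. Tests were edgeR 4.0.16 quasi-likelihood F tests (R 4.3.3, robust), with Benjamini-Hochberg adjustment over all 13067 genes and a threshold of 0.05. Ethanol was fitted without covariates, age cohort with ethanol as covariate, and their interaction with both terms. Standard errors and 95% intervals were derived from each fold change with its F statistic. Library totals of 12816198 to 28859244 counts set the counting precision; p-values cover only the spread between these mice. The fit was checked on simulated counts.

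Genes named for ethanol were, in each complex, the member highest in mean CPM and those of smallest p in each direction. For age they were the smallest p in each direction, and for levels the 3 highest and 2 lowest members of each complex per kb, the redox and catalytic core and the paralogue sets. Of the members so named, 1 is not reported here. Lists outside the set were named by their highest member and smallest p. Other genes (Ndufs7, Ndufs8, Cyc1 and the remaining subunits outside the naming rule) were named after their values were seen. Lengths, positions and shared 50-base words came from GENCODE M21 on GRCm38 (97.7% of tested genes matched), promoters from RefSeq.

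Alternatives were limma-voom with sample weights (limma 3.58.1), DESeq2 1.42.0, other scalings and count filters, covariates, 1 surrogate variable (sva 3.50.0), the replicate number as a block, each cohort alone, removal of a GC and length trend (loess, span 0.3), and leaving out each library. The principal transcript length and the joint removal of saline 4 and saline 5 were added after the data were seen.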

Additional observations from a re-analysis of the deposited data

Results flagged for a closer look

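Within groups, 38 sets of values, of named members and of summed levels, were tested for a single library apart from its group by Dixon's criterion, which chance meets in about 1 of 20 groups, and 2 met it. Ndufs4 stood at 22.2 CPM in saline 3, against 26.9 to 28.7 CPM in the other 4 saline libraries. Sdha stood at 267 CPM in ethanol 4, against 302 to 309 CPM in the other 3 ethanol libraries.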

How the results depend on the processing

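For ethanol, 0 genes were called under all 24 alternatives, and the member median stayed between -0.01 (younger cohort alone) and 0.10 (older cohort alone). With the suffix of the library name as a covariate, or with 1 surrogate variable, 1 member had an unadjusted p under 0.05 (Uqcrc1 each time); leaving out 1 library gave 0 to 1 members and medians of 0.01 to 0.08. For age, 97 genes were called with no count filter and 3 (Adrb1, Nfkbia and Tagap, no members) without saline 1 and ethanol 2; leaving out 1 library gave 0 to 1 members at an unadjusted p under 0.05. With the suffix as a covariate the age median was -0.15 with 10 of 77 positive; in that fit the age estimate rests on saline 4 against the older libraries of its suffix. For the interaction, DESeq2 called 1 gene, no count filter 53, and leaving out 1 library gave 0 to 848 genes and 0 to 3 members (Ndufa9, Ndufb10 and Sdhd) at an unadjusted p under 0.05. The 848 came without ethanol 1, which leaves ethanol 2 as the only older ethanol mouse, assumed to vary like the other groups. The saline 5 deviation was -0.054 with the GC and length trend removed, and the median level was 32.9 CPM per kb of longest and 42.9 of principal transcript.

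Signs turned as follows. Sdhc was 0.0067 with limma-voom, 0.036 without saline 1 and ethanol 2, 0.025 with the suffix, 0.022 with the surrogate variable, 0.041 in the younger cohort and -0.067 to 0.022 leaving out 1 library. Cox6a2 ranged from -0.014 (without ethanol 2) to 0.53 and Uqcrc2 from -0.073 to 0.015 (without ethanol 4) when 1 library was left out. Cox6a2 was -0.079 in the younger cohort, Uqcrc2 0.0093 with the surrogate variable and 0.030 in the older cohort, and Atp5j2 0.0051 without saline 4 and saline 5. The cause was not tested. Cox6a2, Atp5l and Ndufb4 were not tested under the stricter filter, which left 74 members. Fitted with a block for replicate number, the ethanol median was 0.01 with 41 of 77 positive and 0 genes were called, and the complex IV median for age was 0.02; same-numbered mice of the groups did not all deviate together (correlations -0.17 to 0.01 over genes at 10 CPM or more, and -0.08 to 0.30 over the members, with 3 of 4 above 0.1), so the numbers were not taken as a pairing. In that block the count of genes at an unadjusted p under 0.05 went from 386 to 240 for ethanol and from 372 to 801 for age. Depth limits the members below 10 CPM most.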
